A study of Saccharomyces cerevisiae with 32 samples.

Results

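The PDZ3 residues 51 to 100 examined here run from the loop before strand β4, through helix α2, which forms one wall of the peptide groove, to the extra C-terminal helix α3. PDZ3 is the third PDZ domain of PSD95, a scaffold protein of excitatory synapses, and CRIPT is a protein whose C-terminal tail binds it. Members were all sequences of the deposited PDZ3-CRIPT table that differed from the wild-type sequence at exactly 1 of these residues and carried 0 or 1 change in CRIPT. They numbered 142095 of the 251627 variants in the table (56.5%). Among them were 947 of the 950 possible single substitutions with wild-type CRIPT, 24 single stop codons, 135850 pairs of 1 PDZ3 and 1 CRIPT substitution, and 5274 pairs that contained a stop. The pairs covered 94.1% of the 144400 possible combinations with the 151 listed CRIPT substitutions, and each residue held between 2071 members (residue 96) and 3061 members (residue 69). Residues are numbered from 1 at the first listed residue of PDZ3 and of the 8-residue CRIPT peptide, K1, N2, Y3, K4, Q5, T6, S7 and V8.

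The series comprised 32 samples of yeast strain BY4741 from 5 libraries, and the PDZ3-CRIPT library made up 12 of them, for 2 blocks with 3 output and 3 input replicates each. Output cultures had grown for about 5 generations in 200 µg/mL methotrexate, and input cultures had grown without the drug. Another 2 wild-type control samples were not used, and neither of the labelled blocks was assigned to residues 51 to 100. The assay is a protein complementation assay, in which fragments of a drug-resistant dihydrofolate reductase are fused to the domain and to the ligand, and growth in methotrexate follows the amount of complex. It therefore reads abundance and binding together, in fusion proteins expressed in yeast and not in neurons.

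PDZ domains are small folds of β-strands and helices that hold the C-terminus of a partner protein as an extra strand between strand β2 and helix α2. The last ligand residue, V8 of CRIPT, sits in a hydrophobic pocket. The histidine that opens helix α2, H70, binds the side-chain hydroxyl of T6, the ligand residue that defines the class of PDZ domains to which PDZ3 belongs. Helix α3, which most PDZ domains lack, packs against the outside of the PDZ3 fold.

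The authors gave 1 fitness score and 1 error for each sequence, with replicates merged, so the error is theirs, the read depth is unknown, and no spread between cultures could be seen. The wild-type score was -0.000512 ± 0.00383 (the authors' error, as for all ± values of single scores). The median error was 0.0118 for single substitutions and 0.0429 for pairs. Single substitutions at residues 94 to 100 had a larger median error than those at residues 51 to 93, at 0.0187 against 0.0114. The 5298 members with a stop codon set the level of a lost interaction, with a median score of -0.799 and 10th and 90th percentiles of -0.954 and -0.651. All 5298 scored below wild type, and none scored above it, also at an unadjusted p below 0.05.

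Most members grew more slowly than wild type. By a two-sided normal test on the authors' errors, with Benjamini-Hochberg adjusted p below 0.05 over the whole table, 106549 of the 142095 members scored lower and 2836 (2.00%) higher, against 77% and 1.61% of the whole table. At residues 1 to 50, 86906 of 109222 variants (79.6%) were lower and 1203 (1.10%) higher. Without a stop, 100895 pairs of residues 51 to 100 (74.3%) were lower and 2629 (1.94%) higher.

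Single substitutions divided more evenly. Of the 947, 356 (37.6%) scored lower than wild type, 207 (21.9%) higher, and 384 were not called, against 396, 81 and 393 of the 870 at residues 1 to 50. With an added error of 0.0359, the scatter of single effects against the same substitutions beside nearly neutral CRIPT changes, 231 lower and 33 higher calls were left. The mean effect, the score minus that of wild type, was -0.0821 ± 0.00387 at residues 51 to 100, against -0.127 ± 0.00398 at residues 1 to 50 (propagated errors), and the difference was 0.0446 ± 0.00119. These errors leave out the spread between residues, whose means ran from -0.525 (I57) to 0.0547 (R66) in the block. The difference was not tested across residues. An effect below 50% of the stop level, which lies at -0.399, was found for 84 substitutions (8.87%) at residues 51 to 100 and 107 (12.3%) at residues 1 to 50. Of the 84, 64 fell at the 8 residues of lowest mean effect: I57, H70, A73, I86, L77, A74, F98 and V60. These residues hold 152 of the 947 substitutions and were picked by the same scores, so the count is a description only. Prolines made up 15 of the 84.

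**Figure D1:**
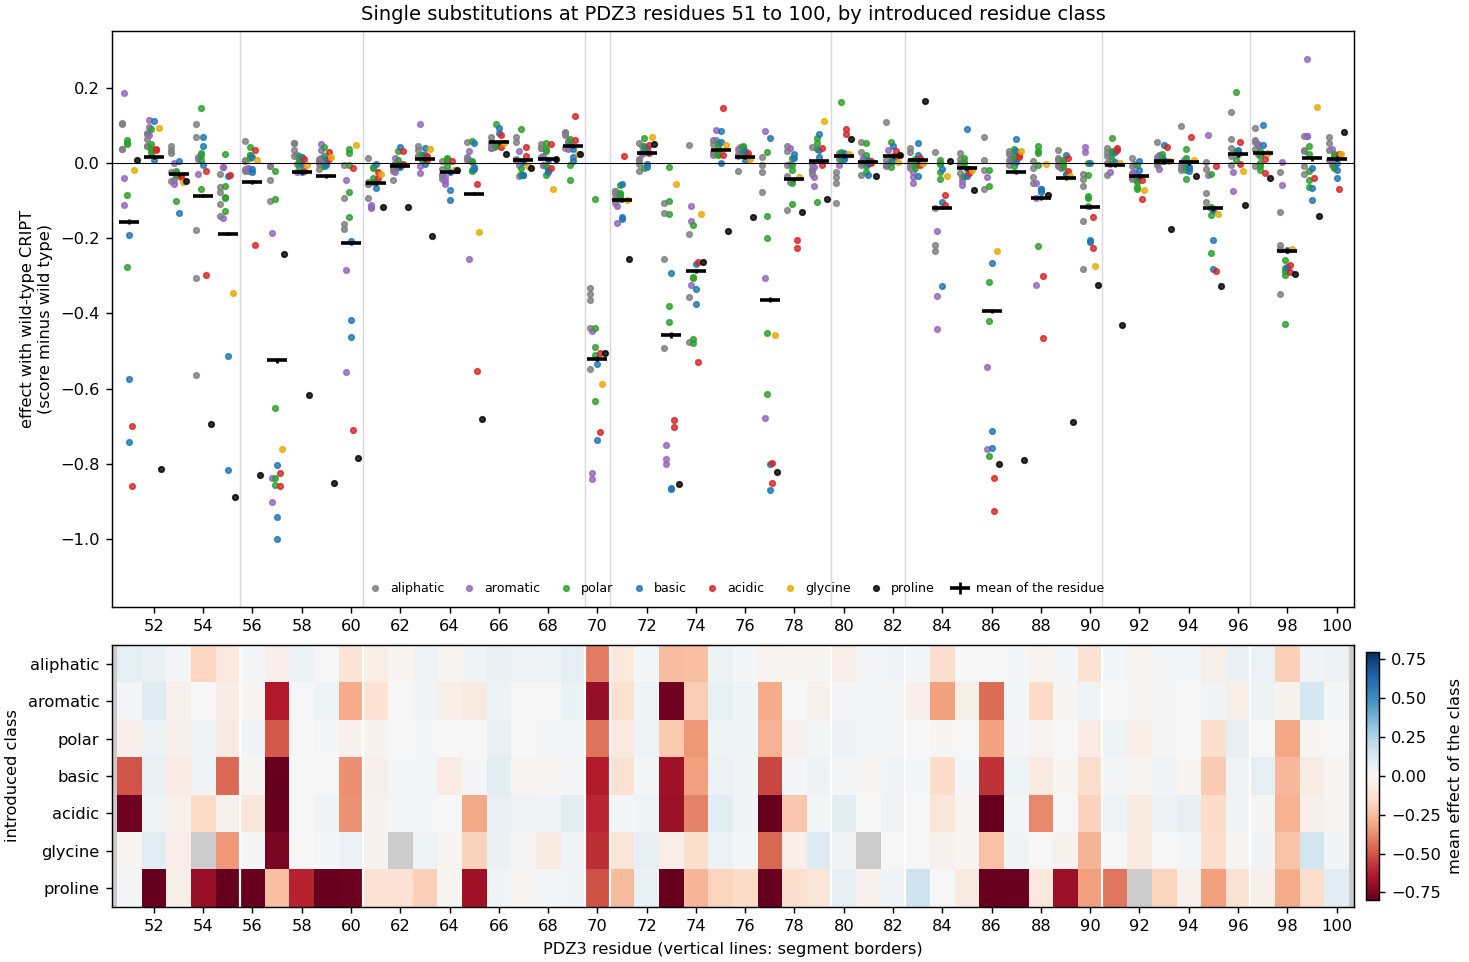
Effects of single substitutions with wild-type CRIPT at residues 51 to 100. The top panel plots each effect (score minus the wild-type score) by residue, coloured by the class of residue introduced, with black bars for the mean of a residue and its propagated error. The lower panel shows the mean effect for each introduced class at each residue, on a colour scale limited at -0.8 and 0.8, with grey for cells without a value. Deep low columns stand at I57, H70, A73, A74, L77 and I86, and R66 is the residue at which all 19 substitutions lie above 0.

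In the turn before strand β4 (residues 51 to 55), chemistry split the substitutions of a single residue in opposite directions. Of 95 substitutions, 46 scored lower and 34 higher than wild type, with a mean effect of -0.0892 ± 0.00412. At L51, charged side chains lost most. L51D, L51R, L51E and L51K gave scores of -0.861, -0.744, -0.700 and -0.575, and the 8 higher calls included the hydrophobic L51V, L51I and L51F at 0.102, 0.105 and 0.184 ± 0.0187. Even L51P, at 0.00735, was not called. R52 was tolerant of all classes but proline: 17 of its 19 substitutions scored higher, up to 0.115 for R52F, and R52P alone scored lower, at -0.816. G54 accepted small and basic side chains, with G54C, G54A and G54R at 0.146, 0.104 and 0.0677, and lost growth with branched aliphatic ones, with G54V and G54I at -0.306 and -0.563. At D55, 16 of 19 substitutions scored lower. The basic D55R and D55K gave -0.817 and -0.514, against -0.0330 for the acidic D55E and 0.0237 for D55Q, which has nearly the same shape as D55E without the charge.

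Strand β4 (residues 56 to 60) had the lowest mean of the strands, -0.169 ± 0.00422, with 38 of 95 substitutions lower and 9 higher. Low means sat at 2 of its residues. I57 and V60 had mean effects of -0.525 ± 0.00728 and -0.213 ± 0.00538, whereas Q56, L58 and S59 lay at -0.0500, -0.0251 and -0.0340. I57 kept near wild-type growth only with other aliphatic residues, as in I57V (-0.00764) and I57L (-0.00953), neither of which was called. I57R, at -1.002 ± 0.0544, had the lowest score of all single substitutions of the block, and I57H and I57Y gave -0.943 and -0.901. At L58 and S59, in contrast, all substitutions other than proline lay between -0.0255 and 0.0527, while L58P and S59P scored -0.617 and -0.852. V60 tolerated small residues, with V60G, V60S and V60A at 0.0481, 0.0261 and -0.00697, of which only V60G was called.

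The connection between strand β4 and helix α2 (residues 61 to 69) was a tolerant stretch. Its mean effect was -0.00472 ± 0.00394, and 55 of 171 substitutions scored higher and 39 lower. Every one of the 19 substitutions at R66 scored above wild type, from 0.0223 for R66P to 0.102 for R66C, with a mean of 0.0547 ± 0.00457. S69, the residue before the groove histidine, had 14 higher calls and 1 lower, with S69E highest at 0.125 ± 0.0121 and S69N lowest at -0.0465. N61 was the opposite case: none of its substitutions scored higher and 14 scored lower, down to -0.120 for N61Y. L65 carried the only deep losses of the stretch, L65P at -0.681 and L65D at -0.555, against 0.0586 for L65Q and 0.0559 for L65M.

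H70, the groove histidine, scored lower with all 19 substitutions and had a mean effect of -0.521 ± 0.00683. The mildest was H70Q, at -0.0973 ± 0.0206. The aliphatic H70V, H70L and H70I followed at -0.333, -0.349 and -0.364, and the lowest were H70Y and H70W at -0.825 and -0.840. The other substitutions were spread over all classes in between, with H70M, H70C, H70F and H70T between -0.489 and -0.439, H70D, H70P, H70S, H70R and H70A between -0.549 and -0.507, and H70G, H70N, H70E and H70K between -0.738 and -0.589. No introduced class but the amide of H70Q thus came near wild type, and H70N, with the shorter amide, scored -0.634.

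Helix α2 (residues 71 to 79) was sharply two-sided. The face with H70, A73, A74 and L77 had a mean effect of -0.407 ± 0.00457, with 69 of 76 substitutions lower and 4 higher, and the opposite face with Q72, I75, A76 and N79 had a mean of 0.0206 ± 0.00413, with 7 lower and 39 higher. A73 tolerated only very small side chains, with A73S at -0.0108, A73G at -0.0563 and A73R at -0.867. A74, a groove residue, was lowered by 18 of its 19 substitutions and raised by A74V, at 0.0465, and its lowest was A74D at -0.529. The polar A74N and A74Q and the aliphatic A74M and A74L gave -0.479, -0.468, -0.477 and -0.357. Of the aromatic substitutions, A74F and A74Y lost less, at -0.156 and -0.116, but A74W lay at -0.325. A74K, A74R, A74S, A74T, A74H, A74P and A74E lay between -0.377 and -0.263, and A74I, A74C and A74G between -0.188 and -0.136. L77 lines the pocket for V8, and there L77F, L77H and L77C scored higher, at 0.0839, 0.0645 and 0.0279. L77I and L77M were not called, at 0.0142 and -0.00694. L77A, L77V and L77T scored lower, at -0.0238, -0.0786 and -0.142, L77Y lay at -0.307 with L77S between it and L77T, and L77R, L77E, L77P, L77K and L77D lay between -0.869 and -0.798. L77N, L77G, L77Q and L77W stood between, from -0.453 to -0.678. At E71 only the acidic E71D was not lower, at 0.0180. K78 was most affected by acidic residues, with K78D at -0.226 and K78E at -0.204. K78P, K78A and K78S followed at -0.131, -0.126 and -0.109, K78Q, K78Y, K78G and K78V lay between -0.0527 and -0.0355, K78I and K78W scored higher, at 0.0317 and 0.0379, and the other 8 were not called. I75 accepted nearly all residues, with 13 higher calls, I75P alone lower at -0.182 and I75D highest at 0.146.

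The turn between helix α2 and strand β6 (residues 80 to 82) had a mean effect of 0.0129 ± 0.0041, with 17 of 57 substitutions higher and 7 lower. None of the 57 lay below 50% of the stop level. A80S reached 0.161 and A80L was lowest at -0.107. Strand β6 (residues 83 to 90) had its low means at every other residue, with a mean of -0.181 ± 0.0042 at V84, I86, A88 and Y90 and of -0.0178 ± 0.0041 at T83, T85, I87 and Q89. The first set held 54 of the 70 lower calls of the strand. I86 behaved like I57, with I86L at 0.0684, I86M at 0.00658 and I86E at -0.927. A88, however, took N and T well, at 0.0454 (A88N) and 0.0307 (A88T), and lost most with A88E, at -0.467. V84 lost more with large hydrophobic residues than with small polar ones, at -0.442 for V84F and -0.236 for V84L, against 0.00601 for V84T.

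Helix α3 (residues 91 to 96) and the C-terminal end (residues 97 to 100) had mean effects of -0.0220 ± 0.00423 and -0.0458 ± 0.00475. Lower calls were most frequent at F98, P92 and Y95. F98 scored lower with 17 of 19 substitutions, from -0.429 for F98S, and only F98M and F98Y, at -0.0255 and 0.00203, were not called. Y95, known as a phosphorylation site in PSD95, scored lower with 12 of 18, and its exchange for phenylalanine in Y95F scored higher, at 0.0735, with a median of -0.0335 beside nearly neutral CRIPT changes. P92 scored lower with 13 of 19, but none of its scores lay below -0.0976. The lowest score of both segments was K91P, at -0.432. R97 and A100 had no lower calls, E94 had 1, S96 had 2 and E99 had 5. The highest score among all single substitutions of the block was E99W, at 0.275 ± 0.0317.

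Calls in both directions among the substitutions of one residue were the rule: 36 residues had both, 9 had lower calls only and 5 had higher calls only. By mean effect, 30 residues lay below 0 and 20 above. The highest means were R66, S69 (0.0450), I75 (0.0355), R97 (0.0262), Q72 (0.0259), S96 (0.0229), A80 (0.0184) and Q82 (0.0171). Those at R97 and S96 rest on the singles of residues 94 to 100, and both were below 0 beside nearly neutral CRIPT changes, at -0.0183 and -0.0495. The 34 residues that are neither among these nor among the 8 lowest had means between -0.188 (D55) and 0.0163 (A76).

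Introduced proline was the most damaging class across the block, with a mean effect of -0.287 ± 0.00466 and 35 of 49 prolines lower. Acidic residues followed at -0.144 ± 0.00429, then basic (-0.116), aromatic (-0.0798), glycine (-0.0668), polar (-0.0524) and aliphatic residues (-0.0273). All 5 prolines in strand β4 scored lower, between -0.852 and -0.243, as did 8 of 9 in helix α2. The 5 prolines that scored higher were T83P at 0.164, A100P at 0.0823 ± 0.0333, A80P at 0.0624, Q72P at 0.0500 and R66P at 0.0223. Beside nearly neutral CRIPT changes, A100P had a median of -0.0249, above 0 in 7 of 27 backgrounds, and the others had medians above 0.

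Effects also differed by the class of the residue replaced. Wild-type aromatic residues had a mean effect of -0.158 and aliphatic residues of -0.147, against -0.0723 for basic, -0.0492 for acidic and -0.00537 for polar residues. These means rest on 3 aromatic, 18 aliphatic, 7 basic, 6 acidic and 12 polar residues, and single residues weigh on them. The basic residues include H70, with a mean of -0.521, and their median effect was 0.0130. Among the acidic residues, D55 and E71 had the lowest means, -0.188 and -0.0993. The aromatic residues are Y90, Y95 and F98. An aliphatic residue replaced by another aliphatic one averaged -0.0320, and one replaced by an acidic, basic or aromatic residue averaged -0.298, -0.223 and -0.170. Exchanges of one aromatic residue for another, or of one acidic residue for the other, averaged 0.0091 and 0.0103. A wild-type acidic residue replaced by a basic one averaged -0.115.

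Each single was also read beside 33 CRIPT substitutions whose own level lay within 0.05 of wild type, which gives a second reading of the same PDZ3 change from other sequences of the table. Across 946 substitutions the effect with wild-type CRIPT and the median in these backgrounds had a Pearson correlation of 0.987 and a Spearman correlation of 0.890. Both readings come from the same cultures, so the correlation is a description only. A difference between them was called for 44 substitutions (4.65%) that scored higher with wild-type CRIPT and 9 (0.951%) that scored lower, against 3.76% and 0.912% of all singles in the table. Of the 356 lower calls, 355 had a median below 0, and of the 207 higher calls, 183 had a median above 0. The exceptions concentrated at the C-terminal end, where 7 of 24 higher calls at residues 94 to 100 had a median above 0, against 176 of 183 at residues 51 to 93.

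E99W scored 0.275 with wild-type CRIPT, against a median of 0.0398 in these backgrounds. S96C, at 0.188 ± 0.0475, and E99G, at 0.149, had medians of -0.0332 and -0.0455. Some gains before residue 94 also shrank, though they stayed above 0. T83P, A80S and I75D scored 0.164, 0.161 and 0.146, with medians of 0.0595, 0.0711 and 0.0388. The gains of S69E, S69V and S69A did not shrink. They scored 0.125, 0.0815 and 0.0734 and had medians of 0.132, 0.100 and 0.0922, and S69E was above 0 in 33 of 33 backgrounds. L51F fell from 0.184 to a median of 0.125, above 0 in each of the 21 backgrounds that listed it. L51I, L51V and G54C fell from 0.105, 0.102 and 0.146 to medians of 0.0735, 0.0805 and 0.0894.

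**Figure D2:**
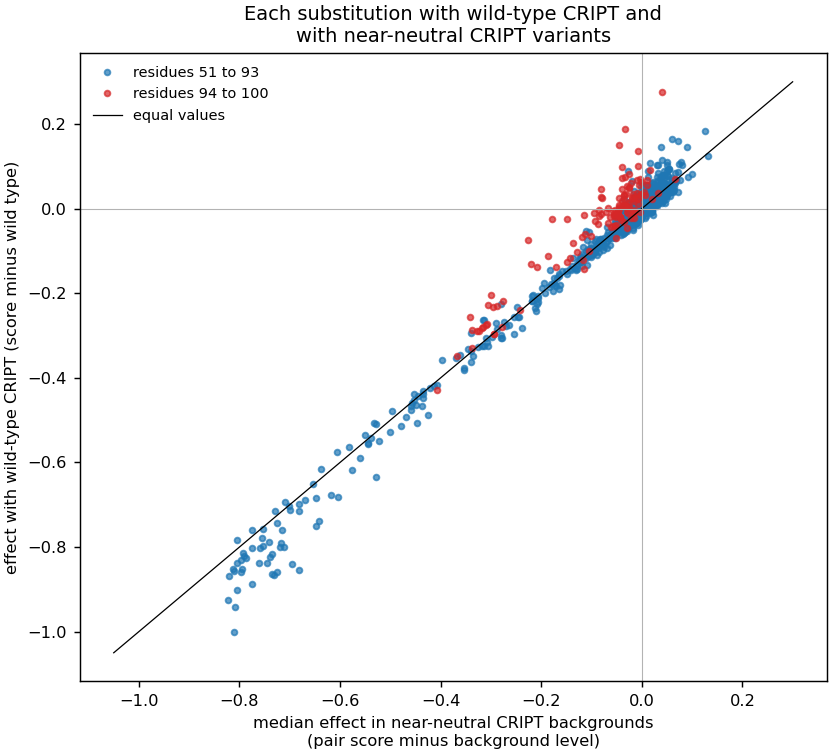
Effect of each of 946 single substitutions with wild-type CRIPT (vertical axis) against its median effect in up to 33 near-neutral CRIPT backgrounds (horizontal axis), both as score minus the wild-type score or background level. Points at residues 51 to 93 are blue and those at residues 94 to 100 red, and the line marks equality. The red points scatter more, with an SD of the difference of 0.0444 against 0.0282 for the blue points.

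Next, the same PDZ3 substitutions were followed through 151 CRIPT substitutions. The level of a CRIPT background is the median score of its pairs whose PDZ3 single lies within 0.02 of wild type (214 to 291 pairs a background). Levels were lowest at T6 and V8, the ligand residues held by the groove histidine and the hydrophobic pocket. At T6 they ran from -0.792 (T6P) to -0.609 (T6I), apart from the conservative T6S at -0.160. At V8, they ran from -0.820 for V8Y to -0.501 for V8M, apart from V8L and V8I at -0.244 and -0.194 and V8C, which stood higher still. The other positions had median levels of -0.307 at K4, -0.216 at S7, -0.180 at Q5, -0.0849 at Y3, -0.0617 at K1 and close to 0 at N2. Q5E stood highest of all at 0.138, followed by Y3W at 0.0683 and N2K at 0.0575. At K4 and K1 the exchange for the other long basic residue left levels of -0.00112 (K4R) and -0.00255 (K1R), while K4D and K1D lay at -0.488 and -0.170.

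Pairs above wild type came from few ligands. The 2629 such pairs lay in 45 backgrounds, and Q5E, Y3W and N2K held 650 of 935, 316 of 907 and 248 of 907 of theirs, together 46.2%. None of the 30413 pairs with a T6 or V8 substitution scored above wild type, also at an unadjusted p below 0.05. Of the highest pairs, L51V with Q5E scored 0.262 ± 0.0580, R97V with Q5E 0.258 ± 0.0921, S69V with Q5E 0.248 ± 0.0291 and L51F with Q5E 0.245 ± 0.0524. L51F with N2T followed at 0.244 ± 0.0881, and L51I with K4R reached 0.235 ± 0.0846.

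**Figure D3:**
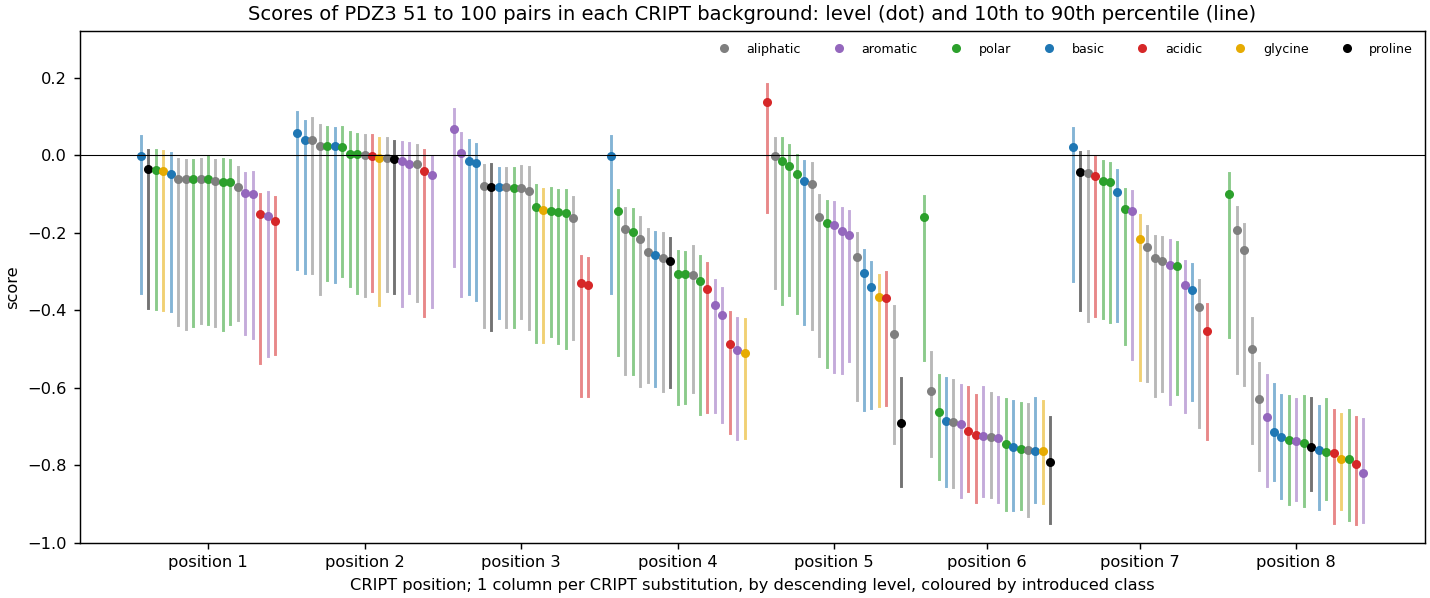
Level (dot) and range between the 10th and 90th percentile (line) of pair scores for each of 151 CRIPT substitutions, grouped by CRIPT position and coloured by the class of residue introduced there. Scores are on the vertical axis, with wild type near 0. Backgrounds at positions 6 and 8 lie near the stop level except T6S, V8C, V8I, V8L and V8M.

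Against the level of its own background, a pair shows what the PDZ3 change did with that ligand. Of 135850 pairs, 24122 (17.8%) scored lower than the level and 2873 (2.11%) higher, against 21.6% and 2.43% of all pairs in the table. At residues 1 to 50, 26.5% were lower and 2.83% higher. The share lowered was 23.5% at K1, 23.7% at N2, 22.2% at Y3, 18.9% at K4, 21.6% at Q5 and 22.0% at S7, but 1.54% at T6 and 4.67% at V8. In the 33 backgrounds with a level below -0.6, of which 32 were at T6 or V8, the median error of their pairs was 0.107. There 0.0937% of pairs were lowered and 1.69% raised.

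The order of substitutions was much alike among the other backgrounds. The rank correlation between pair scores and the singles had a median of 0.810 over 61 backgrounds with a level above -0.1 and 0.785 over 57 with a level from -0.6 to -0.1, against 0.369 over the 33 lowest. These correlations share the single substitutions' scores and are given as a description. Over all ligands together, proline lowered 49.3% of its 6826 pairs and acidic residues 23.5% of theirs, against 20.4% for basic, 18.4% for glycine, 16.5% for aromatic, 13.6% for polar and 12.3% for aliphatic residues. Proline had the largest share and aliphatic residues the smallest at each of the 8 ligand positions, from 4.58% for proline and 0.925% for aliphatic residues at T6 to 62.6% and 16.1% at N2. The mean difference from the level for acidic residues was -0.145 ± 0.00149 with K1 substitutions, -0.116 ± 0.00183 with K4 substitutions and -0.0289 ± 0.00319 with T6 substitutions. Acidic PDZ3 residues averaged -0.0944 ± 0.0023 with an acidic CRIPT residue and -0.106 ± 0.00192 with a basic one. Basic PDZ3 residues averaged -0.0784 ± 0.00183 with an acidic CRIPT residue and -0.0911 ± 0.00155 with a basic one. Levels differ between these ligands, and the differences were not tested.

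Raised pairs concentrated at S69 and R66. S69 had 503 of its 2857 pairs raised (17.6%) and R66 358 of 2862 (12.5%), together 30.0% of all raised pairs of the block. R66 had no pair lowered (1 at an unadjusted p below 0.05). S69E was raised in 107 of 150 backgrounds, S69V in 98 of 151 and S69A in 87. I75, A80, G54 and Q72 followed with 180, 176, 169 and 137 raised pairs, and G54 also had 639 lowered. L51F gave some of the largest rises. L51F with Q5D scored -0.0582 ± 0.103, against a level of -0.369 in Q5D, and L51F with S7Y scored 0.168, against a level of -0.145 in S7Y.

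Beside S7 substitutions, 3 of the 5 largest rises carried L51F. L51F with S7Y was the largest, L51F with S7W scored -0.1003, against a level of -0.335, and L51F with S7T scored 0.145, against -0.0672. I75H with S7H scored -0.120, against -0.347, and S69E with S7I -0.168, against -0.392. Beside V8 substitutions, 2 of the 5 largest carried K78. K53V with V8K scored -0.252 ± 0.122, against a level of -0.714, A100L with V8D -0.369 ± 0.117, against -0.798, and K78F with V8E -0.365 ± 0.0634, against -0.770. A68K with V8Y scored -0.421 ± 0.111, against -0.820, and K78A with V8A -0.234 ± 0.0846, against -0.628. The scores of K53V, A100L and A68K there had the larger errors. At the first 5 ligand residues the largest were L51F with Q5D, R97H with K4W at -0.211, against -0.502, L51F with Q5K at -0.0604, against -0.339, T83E with Q5P at -0.421, against -0.690, and S59G with K4W at -0.238, against -0.502. At R97 the single effect also differed between wild-type CRIPT and near-neutral backgrounds in its mean, at 0.0262 against -0.0183.

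**Figure D4:**
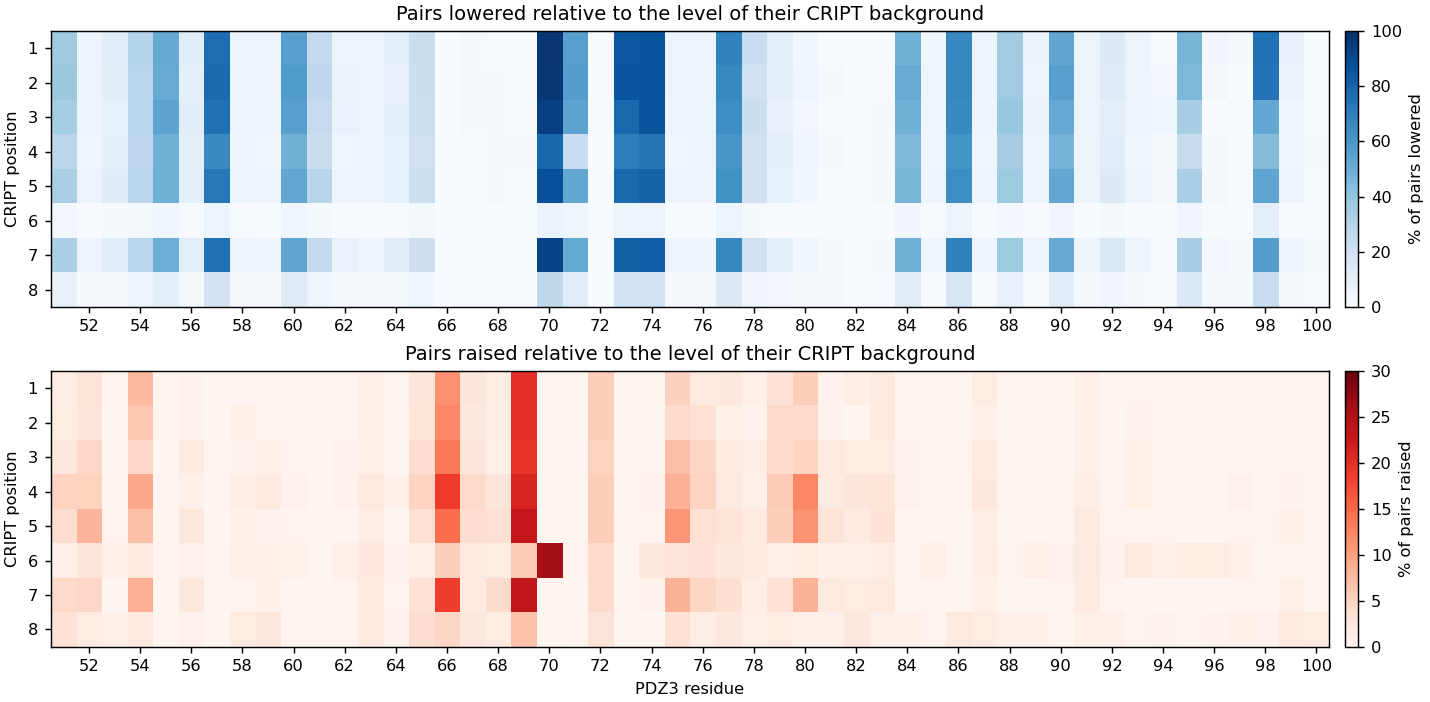
Percent of pairs lowered (top) and raised (bottom) against the level of their CRIPT background, by PDZ3 residue (horizontal axis) and CRIPT position 1 to 8 (vertical axis). Lowered pairs form columns at the same residues for all CRIPT positions except 6 and 8. In the lower panel S69 and R66 form columns, and residue 70 with position 6 stands out, with 26.1% raised.

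H70 with T6 had the largest share of raised pairs among the 400 combinations of a residue and a CRIPT position, ahead of S69 with S7 at 23.5%. Of 276 pairs of an H70 and a T6 substitution, 72 (26.1%) scored above the level of their background, against 227 of 14812 (1.53%) at the other 49 residues with T6. Outside T6, none of 2304 H70 pairs was raised (1 at an unadjusted p below 0.05) and 1973 were lowered. With T6S, which keeps the hydroxyl, 18 of 19 were lowered. The exception was H70Q, whose pair with T6S scored -0.232 and was not called.

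Rises were frequent where an aliphatic residue 70 met an aliphatic or aromatic residue 6, but other classes also gave them. H70V was raised with 13 of its 18 listed T6 substitutions, H70I with 11 of 17, H70C with 9 of 15, H70L with 8 of 17 and H70P with 7 of 15. H70T followed with 6 of 16, H70A with 5 of 16, H70G with 4 of 16 and H70M with 3 of 15. H70D and H70F were raised with 2 each and H70S and H70W with 1 each. H70E, H70K, H70N, H70Q, H70R and H70Y were raised with none. On the ligand side, T6Y had 10 of 17 pairs raised, T6W 9 of 15, T6F 8 of 15, T6V and T6M 7 of 17 each, T6I 7 of 18 and T6L 6 of 16. T6C, T6R, T6H, T6Q, T6K, T6E and T6G had from 4 pairs down to 1 raised, and T6D, T6N, T6P and T6S had none. By class, 16 of 20 pairs of an aliphatic residue 70 with an aliphatic residue 6 were raised, 12 of 15 with an aromatic residue 6 and 7 of 14 with a basic one. A polar residue 70 was raised in 7 of 14 pairs with an aromatic residue 6 and in 7 of 18 with an aliphatic one. Not all nonpolar combinations rose: an aromatic residue 70 with an aliphatic residue 6 gave 1 of 7, and glycine with an aliphatic residue 6 gave 0 of 4. Neither a basic residue 70 with any ligand nor an aromatic residue 70 with an aromatic ligand (0 of 5) gave a rise.

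The largest rises stayed well below wild type. With T6, the 5 largest were 4 pairs of H70 and the pair of S96M with T6R, which scored -0.290 ± 0.117, against a level of -0.763 in T6R. H70L with T6L scored -0.234 ± 0.0430, against a level of -0.728 in T6L. H70I with T6V scored -0.215 ± 0.0405, against -0.689 in T6V. H70P with T6F scored -0.239 ± 0.0504, against -0.726 in T6F, and H70V with T6M scored -0.306 ± 0.0383, against -0.761 in T6M. Glycine also gave large rises with aromatic ligands, with H70G at -0.281 beside T6W and -0.270 beside T6Y, although H70G alone scored -0.589 with wild-type CRIPT. In all, 44 of the 276 pairs (15.9%) scored above the H70 single of the same substitution with the wild-type ligand. That count takes no account of the errors and was not tested. H70K, H70W and H70Y gave 4, 3 and 3 of the 44, and their singles, at -0.738, -0.840 and -0.825, already lay near the stop level.

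**Figure D5:**
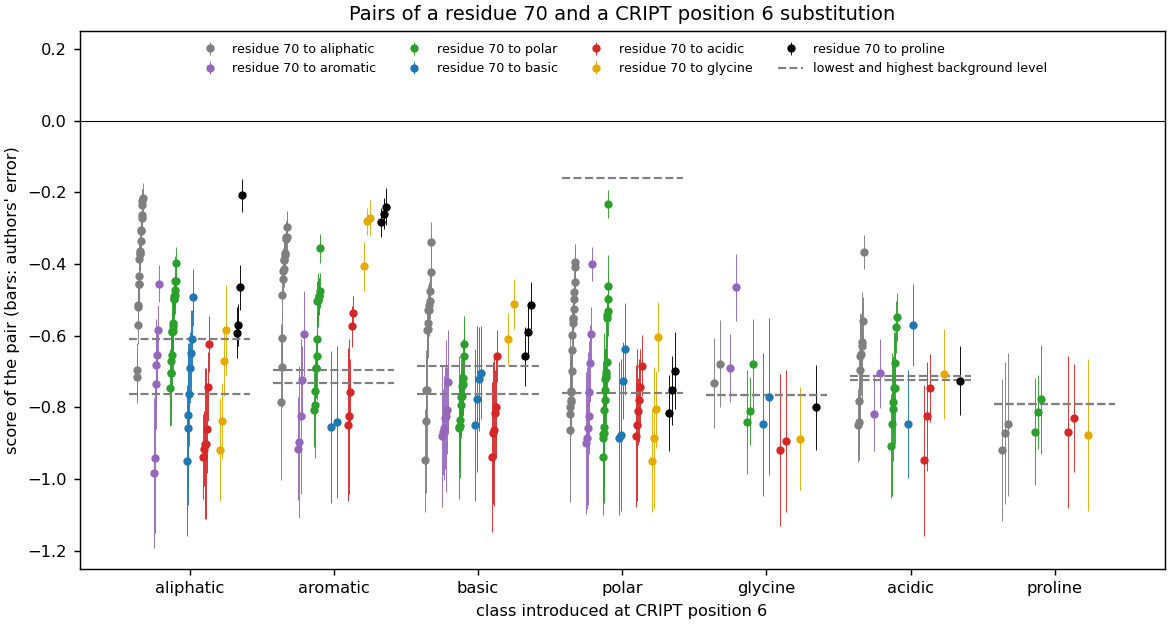
Scores of 276 pairs of an H70 and a T6 substitution with the authors' errors, by the class of residue introduced at CRIPT position 6 (horizontal axis) and coloured by the class introduced at residue 70. Dashed lines mark the lowest and highest background level of each ligand class. Most pairs of an aliphatic residue 70 with an aliphatic or aromatic ligand stand above the levels, and with aromatic ligands proline and glycine stand highest.

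Each pair was also set against a curve fitted to the summed effects of its 2 singles, which allows for the floor of the scale. Of 135850 pairs, 223 (0.164%) scored below the curve and 950 (0.699%) above, against 0.251% and 0.819% of all pairs in the table. Over 400 combinations of a PDZ3 residue and a CRIPT position, 55.8% held no pair off the curve. H70 with T6 led with 83 of 276 (30.1%). S7 backgrounds held 878 of the 1173 pairs off the curve. After the median deviation of each PDZ3 and CRIPT substitution was taken out, none of those at S7 was left (429 at an unadjusted p below 0.05), and 125 pairs above the curve and 0 below (1092 at an unadjusted p below 0.05) were left in all. Of 117 pairs above the curve under both, 68 joined H70 and T6.

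The other pairs above the curve under both were spread over many residues, most often with 1 or 2 pairs for a residue and ligand position. L77, which lines the pocket for the last ligand residue, had 8 with V8. L77G with V8L scored -0.314 ± 0.0345, against an expected -0.668, and L77V with V8L scored -0.130, against an expected -0.329. The mean difference from the level over L77 substitutions was -0.222 ± 0.0177 beside V8L, -0.127 ± 0.0258 beside V8M, -0.267 ± 0.0145 beside V8I and -0.341 ± 0.0156 beside V8C, against -0.353 ± 0.0024 in near-neutral backgrounds. Beside V8M the differences were also smaller at some other residues. A73 averaged -0.230 ± 0.0323, against -0.421 ± 0.00277 in near-neutral backgrounds, I86 -0.217 ± 0.0302, against -0.378 ± 0.00256, and A74 -0.201 ± 0.0293, against -0.291 ± 0.00206. At V84 the difference was not smaller, at -0.142 ± 0.0177, against -0.118 ± 0.00135. The V8M means cover 15 substitutions at A73, 16 at I86, 18 at A74 and 19 at V84, so the sets compared are not the same. The V8M level of -0.501 lies nearer the stop median of -0.799 than near-neutral levels do, so a loss has less room there. How far this makes the differences smaller was not tested. A74 had 4 pairs above the curve under both with T6, among them A74Y with T6S at -0.101, against an expected -0.286. K78, also in the groove, and S59, in strand β4, had 3 each with V8. Those of K78 included K78F with V8E and K78A with V8A, and of those of S59, S59W with V8P scored -0.401 ± 0.0822, against an expected -0.754. No pair lay below the curve under both.

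E71, the first residue of helix α2 after H70, had 84 of 360 pairs (23.3%) lowered with K4 substitutions. The share was between 51.8% and 56.7% with substitutions at K1, N2, Y3, Q5 and S7, and 4.02% and 11.7% with those at T6 and V8, whose levels are the lowest. In K4 backgrounds other than K4R, the mean difference of E71 pairs from the level was -0.0681 ± 0.00277, against -0.120 ± 0.00201 in backgrounds of other positions in the same range of levels. G54, L65, V84, A88, Y90 and Y95, of like mean single effect, averaged -0.109 ± 0.00149 in the K4 backgrounds and -0.114 ± 0.00099 in the others. Beside K4R, E71 averaged -0.0974 ± 0.00819. These residues and ranges were chosen with the values known, and the contrast was not tested.

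F98 and Y95, the aromatic residues near the C-terminus of the domain, had their highest shares of lowered pairs with K1 and N2 substitutions. H70, I57, A73 and Y90 also had their highest share with K1 or N2 substitutions, so this is not particular to F98 and Y95. At I86 the share was highest with S7 substitutions, and at D55 and A88 with Y3 substitutions. For F98 the share was 74.9% with K1, 52.6% with Y3, 43.7% with K4, 53.8% with Q5 and 57.1% with S7 substitutions, with mean differences of -0.321, -0.246, -0.272, -0.256 and -0.282 in the same order. With N2 substitutions the F98 share was 74.04%. For Y95 the share was 47.3% with K1, 45.5% with N2, 34.1% with Y3, 23.7% with K4, 33.5% with Q5 and 34.5% with S7 substitutions. Errors differ between these backgrounds, and their part in the shares was not tested.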

How the data were processed

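Per the deposited file, the authors gave 1 fitness score and 1 error on the same scale for each amino acid sequence. The log base, the kind of error, the tool and the count filter are not given in the sources used here. Replicates were merged, so depth and the spread between cultures are unknown and p-values rest on the authors' errors. The members, segments, residue classes and lists were chosen with earlier results of these data known. Segment borders are approximate, from general knowledge of the fold.

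A score was compared with wild type, a pair with the level of its CRIPT background (at least 20 near-neutral partners required), and a pair with an isotonic curve of summed single effects fitted per listing, 1 missing PDZ3 single being filled. Each used a two-sided normal test with Benjamini-Hochberg adjustment over the whole PDZ3-CRIPT table and a threshold of 0.05. Means are unweighted, with propagated errors. Named were the residues of lowest and highest mean with their extreme substitutions, the extreme singles, every substitution at H70, A74, L77 and K78, and the pairs farthest from level or curve; other named examples were chosen after their values were seen. Python 3.11.15, numpy 2.4.6, pandas 2.3.3, scipy 1.17.1 and scikit-learn 1.9.0 were used, and the scripts were tested on simulated data. The planned fits of read counts per replicate could not be made on a table of scores.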

Additional observations from a re-analysis of the deposited data

Results flagged for a closer look

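The 5 pairs farthest above the curve of summed single effects were all of H70 with T6, where the effect of the PDZ3 change differed between ligands by the table-wide normal test. The score minus the curve was 0.593 for H70P with T6I (adjusted p 3.53e-24), 0.585 for H70I with T6V (4.16e-34), 0.575 for H70V with T6I (4.38e-47), 0.567 for H70L with T6L (5.12e-30) and 0.561 for H70P with T6F (1.53e-18).

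Of the 53 single substitutions whose effect with wild-type CRIPT differed from the median in near-neutral CRIPT backgrounds by the same kind of test, the 6 with the largest differences follow. The effect minus the median was 0.236 for E99W (adjusted p 8.45e-10), 0.221 for S96C (0.000588), 0.195 for E99G (2.33e-07) and 0.156 for S96Y (0.0314, from 4 backgrounds). It was -0.190 for I57R (0.0261) and -0.173 for A73P (0.00108). I57R scored -1.002 with a median of -0.811, and A73P -0.855 with a median of -0.682. None of these values lies above the range of stop members, with 10th and 90th percentiles of -0.954 and -0.651. E99 and S96 lie among the residues whose single scores have the larger errors.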

How the results depend on the processing

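No paired analysis was possible because the deposited table holds 1 merged score per sequence; for the same reason leaving out a replicate could not be run. Among the main results, 49 values under alternatives kept near the reported one and 23 moved. With an adjusted p below 0.01, 1618 members scored above wild type, 1008 pairs above their background level and 87 below the curve. With only the 50% of variants that have the lower errors, 47451 members scored below wild type, 9765 pairs below their level and 305 above the curve. The shares of H70 with T6 pairs raised and off the curve were then 95.8% and 50%, and the mean single effect was -0.0205. The means of A74 (0.0470) and of wild-type basic residues (0.00897) turned positive. The A74 value was that of A74V alone, and no H70 substitution was left among the basic residues. Low scores tended to have larger errors, so this choice removed mostly low-scoring H70 with T6 pairs and damaging singles. These shares and means are therefore no check on the reported ones. With the CRIPT single as the level, 8906 pairs were raised. A plain sum in place of the curve gave 1330 pairs below and 6695 above it, with 78.99% of H70 with T6 pairs off it, and a product gave 849 below. Removing median deviations left 0 below and 125 above, and leaving out S7 and the CRIPT singles far from their level, chosen after seeing the data, left 31 and 155. The scatter error, also chosen then, left 231 lower and 33 higher singles. The mean single effect was -0.00643 as a median and -0.0395 when weighted, and the median difference between residues 51 to 100 and residues 1 to 50 was 0.0303. Medians were positive for the β4-α2 connection (0.00717), wild-type basic (0.0130) and wild-type polar residues (0.00307). In near-neutral backgrounds the means of R97 (-0.0186) and S96 (-0.0494) turned negative, as did the single effects of S96C (-0.0332), E99G (-0.0455) and S96M (-0.00741), an alternative chosen after seeing the data. Of the other highest and lowest singles, 15 moved in these backgrounds and 2 kept near the reported effect. The cause was not tested.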

Other observations

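Of the 151 CRIPT substitutions, 15 had a single score with wild-type PDZ3 more than 0.1 below the level of their pairs, and 1 more than 0.1 above it. T6P scored -1.315 alone, against a level of -0.792, and S7T scored 0.0478, against a level of -0.0672. Among the PDZ3 substitutions, 99 were raised in at least 1 CRIPT background and lowered in another. Those with at least 3 of each were 9 substitutions of H70, raised only beside T6 substitutions, and V63W.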
